A study of Mus musculus with 8 samples.

Results

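The genes described here encode the machinery that copies DNA and the enzymes that supply its building blocks. They are 33 genes chosen by name for their S phase functions, and all 33 were found among the 47729 gene identifiers measured. By role, 16 license or fire replication origins or control these steps, 5 supply deoxynucleotides, 9 act at the replication fork or in repair, and 3 supply histones to new DNA. The 16, called licensing and firing genes below, include Gmnn and Dtl, which restrain licensing. The libraries came from ductal cells of the healthy adult liver of male C57/B6 mice, collected by flow sorting for the surface protein EpCAM, with no genetic change or drug named in the labels. In the 2 fresh libraries RNA was taken after the sort, at 0 h. In the others the sorted cells had been embedded in Matrigel, a basement membrane gel, under organoid medium, for 12 h (2 libraries), for 24 h (1 library), for the time of a library titled 48 h (1 library), or for 6 days (2 libraries), when they are called organoids. The 48 h-titled library carries a time point label of 24 h, so it is called by its title throughout and its place in time is not certain. Nothing in the labels says that the paired libraries were made from different animals, so a p-value here reflects how much these libraries vary, which may be technical.

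Before a cell can copy its genome, each origin of replication must be licensed: the origin recognition complex, with Cdc6 and Cdt1, loads the ring-shaped MCM helicase onto DNA, and geminin later blocks a second loading. Cyclin E with its kinase, Cdc45 and the GINS complex then turn the loaded rings into moving forks, where primase, polymerases, the sliding clamp and ligase make the new strands. The forks draw on deoxynucleotides made by ribonucleotide reductase, thymidylate synthase and salvage kinases, and on histones brought by chaperones. Duct cells of a healthy liver divide rarely, and they enter the cell cycle after injury or when placed in organoid culture. Many of these genes are known targets of E2F transcription factors, and the activating members of that family are held inactive in resting cells.

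The libraries held between 13833143 and 28468920 effective reads, a depth worked back from the deposited RPKM values (reads per kilobase of gene, scaled to library depth). The 24 h library detected the fewest genes, with 13895 above 0 RPKM against 15632 to 21132 in the other libraries, and 16 of 1302 genes that averaged 50 RPKM or more were below 1 RPKM there, against 0 to 12 elsewhere. Organoid library 1 had the lowest depth and an RPKM sum of 446034, where the other libraries lay between 357129 and 369701. Epcam stayed between 513 and 1175 RPKM in every library, and the summed level of 13 duct markers was 16504 to 23213 RPKM in the 6 cultured libraries, against 31762 and 35405 RPKM in the fresh ones. Markers of other cells also differed between cultured and fresh libraries. The summed level of 10 hepatocyte markers was 7.08 to 166 RPKM in the cultured libraries, against 937 and 965 RPKM in the fresh ones. That of 8 immune markers was 14.9 to 145 RPKM, against 287 and 275 RPKM in the fresh libraries. The fresh immune sum was mostly Cd74, at 257 and 254 RPKM. Single markers could go against their sum. The immune marker Cd68 had 22.8 RPKM in the 48 h-titled library and 22.1 RPKM in organoid library 1. Cd68 had 21.7 and 7.57 RPKM in fresh cells and at most 9.3 RPKM in the other cultured libraries. The hepatocyte marker Fgb had 79.7 RPKM in the 48 h-titled library and at most 9.83 RPKM in the other cultured ones. In fresh cells Fgb had 12.2 and 9.15 RPKM. Of 5 mesothelial markers, Msln had 37.9 and 48.5 RPKM at 12 h, 137 RPKM at 24 h, 413 RPKM in the 48 h-titled library and 488 and 475 RPKM in organoids, against 29.3 and 21.4 RPKM in fresh cells. The other mesothelial markers went the opposite way: Gpm6a was at most 5.78 RPKM in the cultured libraries, against 16.6 and 28.7 RPKM in the fresh ones, Nkain4 was at most 0.23 RPKM, against 7.88 and 5.84 RPKM, and Upk3b and Wt1 were under 1 RPKM in every library. Summed levels of 6 endothelial and 8 mesenchymal and stellate markers were at most 3.59 and 13.7 RPKM. The immune marker Cd3e was at 0 in all libraries, and Ptprc was at most 0.0143 RPKM. The part of these shifts in the results was not tested, and in such bulk libraries fewer cells of a type and less RNA per cell cannot be told apart.

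The first question was when each gene climbed above its level in fresh cells. By the rule of the first group with a library above both fresh libraries, 25 of the 33 genes were first higher at 12 h, 6 at 24 h and 2 in the 48 h-titled library. Of all 12900 genes tested, 66.2% were first higher at 12 h, 6.64% at 24 h, 5.89% in the 48 h-titled library and 4.06% in organoids, so the early count of these genes lies close to the background. Of the 16 licensing and firing genes, 14 met the rule at 12 h. For nucleotide supply it was 4 of 5, for fork and repair genes 6 of 9, and for histone supply 1 of 3, the chromatin assembly subunit Chaf1b. Those first higher at 24 h were Orc1 (the large origin recognition subunit), Prim1 (the catalytic primase subunit), Lig1 (the ligase that joins Okazaki fragments), Exo1 (a repair exonuclease), and Nasp and Slbp (a histone chaperone and the protein that binds histone mRNA). The last to pass both fresh libraries were Cdc45, the helicase cofactor, and Tk1, the thymidine salvage kinase.

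The order rested in part on single 12 h libraries. Both 12 h libraries were above both fresh libraries for 14 of the 33 genes, close to the 38.6% of all genes tested for which this held. The 14 were Gmnn, Mcm2, Mcm3, Mcm6, Mcm7, Gins2, Tyms, Dctd, Rfc2, Rpa2, Pola1, Fen1, Ung and Chaf1b. When every library of a group had to pass, 14 genes were first higher at 12 h, 14 at 24 h and 5 in the 48 h-titled library. Of 27 genes that reached 1 RPKM in a 12 h library, 8 lay more than 3-fold apart between the pair, near the background share of 25.0%. Rrm1, the large subunit of ribonucleotide reductase, was an example with 28.0 and 4.37 RPKM at 12 h, and Cdt1 had 1.03 and 16.4 RPKM. Of those 8, Rrm1 and Gmnn were higher in library 1 of the 12 h pair, and Cdt1, Cdc6, Mcm4, Cdc45, Ccne1 and Rrm2 in library 2. Among licensing and firing genes, 6 of the 13 that reached 1 RPKM lay more than 3-fold apart. Of all 16, 7 were above both fresh libraries in 12 h library 1 and 13 in library 2, against 52.0% and 52.8% of all genes tested. The 12 h count for this role thus rests largely on library 2.

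The genes as a set stood furthest from fresh cells in the 48 h-titled library. Above both fresh libraries were 17 and 22 of the 33 in the 12 h libraries, 26 at 24 h, 33 in the 48 h-titled library, and 28 and 32 in the organoid libraries. Over all genes tested those shares were 52.0% and 52.8% at 12 h, 44.0% at 24 h, 55.1% in the 48 h-titled library, and 43.4% and 57.0% in organoids. Their median difference from the fresh mean, on the log2(RPKM + 1) scale, was 0.17 and 0.46 in the 12 h libraries, 1.11 at 24 h, 2.95 in the 48 h-titled library, and 1.37 and 2.46 in the organoid libraries. The same median over all genes tested lay between -0.07 and 0.34 in these libraries. Among the 4 roles, the 5 nucleotide supply genes had the largest median in each library after 12 h, with 2.43 at 24 h, 3.64 in the 48 h-titled library, and 2.29 and 3.34 in organoids, while the 3 histone supply genes reached 1.14 at most. Of the 33 genes, 25 had their highest value in the 48 h-titled library, against 13.5% of all genes tested, and 5 had it at 24 h (Orc1, Mcm6, Rpa2, Ung and Nasp), against 17.8%.

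**Figure D1:**
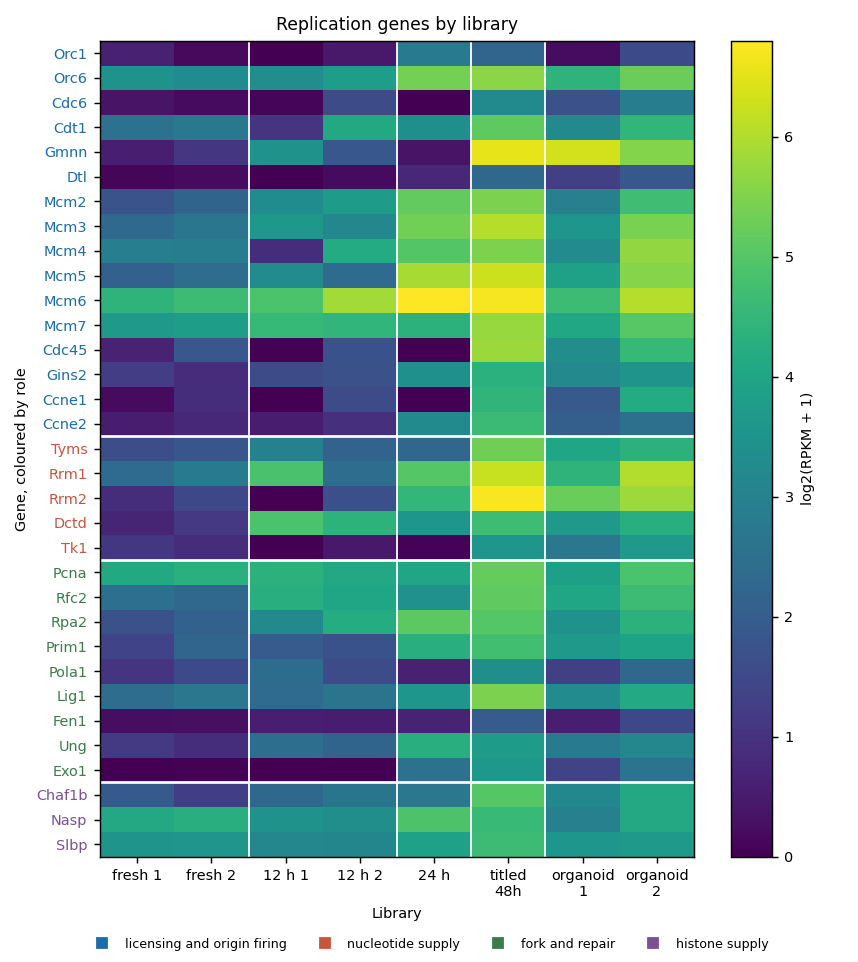
Heat map of the level of each of the 33 genes (rows, grouped and coloured by role) in each of the 8 libraries (columns), as log2(RPKM + 1). The column titled 48 h is above both fresh columns for all 33 genes and the 24 h column for 26, with Cdc6, Cdc45 and Ccne1 at 0 at 24 h.

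**Figure D2:**
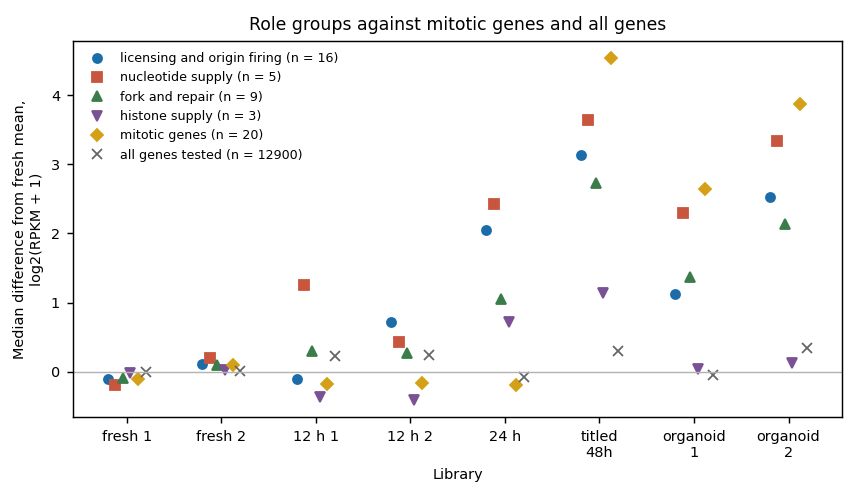
Median difference from the fresh mean on the log2(RPKM + 1) scale (vertical) in each of the 8 libraries (horizontal), with 1 point for each role, for 20 mitotic genes and for all genes tested. The replication roles stand above all genes at 24 h while the mitotic genes stay at -0.20, and the mitotic genes reach 4.54 in the 48 h-titled library.

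The promoters were read for the E2F site because the licensing genes are known E2F targets. RefSeq promoters (GRCm38.p6) were at hand for 27 of the 33 genes. An E2F word was TTTGGCGC, TTTGCCGC, TTTCGCGC or TTTCCCGC on either strand, within 250 bases before the start, and matches may overlap each other. At least 1 word stood in 7 of the 27 genes (25.9%), against 2.16% of 27025 genes. By role these were 6 of 12 licensing and firing genes (Cdc6, Dtl, Mcm5, Mcm6, Mcm7 and Orc1), 0 of 5 nucleotide supply genes, 1 of 7 fork and repair genes (Pola1) and 0 of 3 histone supply genes. In separate lists of related genes, a word stood in 6 of 19 E2F and S phase regulators (31.6%) and 7 of 39 further licensing and fork genes (17.9%). It stood in 1 of 28 further nucleotide synthesis genes (3.57%) and 1 of 17 mitotic genes (5.88%). The CCAAT word stood in 18 of the 27 (66.7%) and 15 of 17 mitotic genes (88.2%), against 37.5% of all genes, and TTTGAA, the core of the cell cycle homology region, stood in 4 of the 27 (14.8%) and 7 of 17 mitotic genes (41.2%), against 18.3%.

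Of the windows printed here, those of Mcm5, Mcm6 and Orc1 are shown since these genes had their highest or second highest level at 24 h and hold E2F words, which are in capitals. They were picked for having both. Rpa2, Ung and Nasp were also highest at 24 h and hold none of the words. Among the other genes with a word, Dtl and Mcm7 were above both fresh libraries at 24 h, and Cdc6 and Pola1 were below both. Those of Rrm2 and Dctd are shown since these genes passed the test in 4 of the 5 comparisons that follow and hold none of the words, in any of the 3 listed windows for Dctd. Each is given 5′ to 3′ on the strand of the gene. They lie at chr8:75109259-75109508 on the plus strand (Mcm5), chr1:128359706-128359955 on the minus strand (Mcm6), chr4:108579204-108579453 on the plus strand (Orc1), chr12:24708004-24708253 on the plus strand (Rrm2) and chr8:48098842-48099091 on the plus strand (Dctd).
Mcm5: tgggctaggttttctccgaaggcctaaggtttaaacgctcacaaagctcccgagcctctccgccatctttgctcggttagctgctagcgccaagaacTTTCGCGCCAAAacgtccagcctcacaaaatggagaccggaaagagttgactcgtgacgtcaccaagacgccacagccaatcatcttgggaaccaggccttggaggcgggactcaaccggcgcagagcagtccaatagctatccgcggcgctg
Mcm6: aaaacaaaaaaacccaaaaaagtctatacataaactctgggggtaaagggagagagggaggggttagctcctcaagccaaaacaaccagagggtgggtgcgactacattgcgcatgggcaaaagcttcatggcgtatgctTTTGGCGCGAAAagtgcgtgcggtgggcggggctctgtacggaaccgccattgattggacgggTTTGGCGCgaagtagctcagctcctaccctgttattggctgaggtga
Orc1: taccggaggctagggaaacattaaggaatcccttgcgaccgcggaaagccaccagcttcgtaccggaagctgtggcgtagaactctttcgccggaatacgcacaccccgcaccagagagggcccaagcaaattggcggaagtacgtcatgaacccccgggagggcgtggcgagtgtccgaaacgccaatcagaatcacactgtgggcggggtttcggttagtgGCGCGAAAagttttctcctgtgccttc
Rrm2: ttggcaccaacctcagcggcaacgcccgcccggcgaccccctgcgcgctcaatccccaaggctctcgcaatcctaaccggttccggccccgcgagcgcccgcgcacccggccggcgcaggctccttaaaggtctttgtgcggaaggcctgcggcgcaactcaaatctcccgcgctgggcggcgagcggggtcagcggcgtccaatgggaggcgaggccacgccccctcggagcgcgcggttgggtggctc
Dctd: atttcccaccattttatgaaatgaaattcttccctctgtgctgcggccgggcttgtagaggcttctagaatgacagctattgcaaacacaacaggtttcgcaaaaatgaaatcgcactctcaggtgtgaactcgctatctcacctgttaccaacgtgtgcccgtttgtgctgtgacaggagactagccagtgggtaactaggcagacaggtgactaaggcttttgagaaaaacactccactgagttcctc
In Mcm5 the nearest word ends 142 bases before the start and 2 words on opposite strands overlap, and in Mcm6, with 3 words, the nearest is 40 bases before it. In Orc1 the word is 20 bases before the start. A match is a description of letters and not a measured binding site, and its absence says only that these words are not in this window.

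At 12 h against fresh cells, the clearest change was in Dctd, dCMP deaminase, which makes dUMP, the precursor of thymidylate. Dctd had 28.5 and 20.2 RPKM in the 12 h libraries and 11.0 RPKM at 24 h, 25.0 RPKM in the 48 h-titled library, 11.6 and 18.1 RPKM in organoids, against 0.615 and 1.20 RPKM in fresh cells. Every cultured library was thus far above both fresh ones, and the 12 h mean was 24.4 ± 5.84 RPKM against 0.905 ± 0.41 RPKM in fresh cells (SD, n = 2 each), a ratio of 26.9. The fitted change was 3.73 on the log2 scale (SE 0.44; limma, adjusted p = 0.0198). Dctd is a protein-coding gene on chromosome 8, at 48099092 to 48153233 in GRCm38, and its printed upstream window holds no E2F word.

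Dctd was the only 1 of the 33 genes to pass the test at 12 h, and none passed as lower, where 3.09% of all genes tested passed as higher and 3.72% as lower. The genes without overlap between the 2 groups were 14 higher and 3 lower, beside 38.6% of all genes tested that were higher and 23.6% that were lower without overlap. The median fitted change of the 33 was 0.28 against 0.24 for all genes, and it was -0.08 against -0.13 when each library was centred on its own median. Rfc2, a clamp loader subunit, came next with 18.4 and 15.2 RPKM at 12 h against 4.64 and 3.90 RPKM in fresh cells, and missed the threshold (limma, adjusted p = 0.051). With any of the 4 libraries compared left out, 0 members passed, and 2 to 6 had an unadjusted p under 0.05. Without either organoid library 2 members passed. The adjusted p of Dctd was 0.129 without fresh 1, 0.106 without fresh 2, 0.0549 without 12 h library 1 and 0.0503 without 12 h library 2.

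Dut, the dUTPase that also makes dUMP, stood beside Dctd among the 31 tested of 32 further nucleotide synthesis genes. It had 29.7 and 23.5 RPKM at 12 h against 3.29 and 4.21 RPKM in fresh cells (fitted change 2.54; limma, adjusted p = 0.0246) and was the one gene of that list to pass at 12 h. Of 48 further licensing and fork genes, 5 rose and 0 fell, namely Gins1 (a GINS subunit), Pold1 and Pold2 (subunits of the lagging strand polymerase), Rfc3 (a clamp loader subunit) and Tipin (a fork protection protein). Gins1 had 10.3 and 10.5 RPKM at 12 h against 1.17 and 0.904 RPKM in fresh cells, and Pold2 had 75.1 and 62.2 RPKM against 10.8 and 13.8 RPKM. None of the 20 mitotic genes passed at 12 h. Of all genes tested, 3.09% passed as higher there and 3.72% as lower. The 1 call among the 31 nucleotide synthesis genes is thus near the background.

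At 24 h 2 of the 6 helicase ring subunits and 4 of the 9 fork and repair genes rose, while Cdc45, Cdc6 and Ccne1 were at 0. The 24 h library exceeded both fresh libraries for 26 of the 33 genes, against 44.0% of all genes tested, and was below both for 7, against 47.4%. It exceeded both 12 h libraries for 21 of the 33, against 30.3%. The fit called 10 members higher and none lower, where it called 4.26% of all genes higher and 6.66% lower. By role these were 4 licensing and firing genes (Mcm2, Mcm5, Gins2 and Ccne2), 2 nucleotide supply genes (Rrm2 and Dctd) and 4 fork and repair genes (Rpa2, Prim1, Ung and Exo1).

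Mcm2 and Mcm5 are subunits of the helicase ring, and Mcm5 is one of the genes with E2F words in the window printed above. Mcm5 had 3.29 and 4.43 RPKM in fresh cells, 8.76 and 4.24 RPKM at 12 h, 59.4 RPKM at 24 h, 76.5 RPKM in the 48 h-titled library, and 14.0 and 45.9 RPKM in organoids. The 24 h value was 15.4 times the fresh mean (fitted change 3.64, SE 0.76; limma, adjusted p = 0.0353), and the 12 h pair overlapped the fresh pair. Mcm2 had 2.38 and 3.55 RPKM in fresh cells, 8.82 and 12.4 RPKM at 12 h, 35.0 RPKM at 24 h, 43.0 RPKM in the 48 h-titled library, and 6.78 and 25.4 RPKM in organoids (24 h against fresh 3.20, SE 0.76; limma, adjusted p = 0.0462). The other ring subunits had no call at 24 h, with 39.6 RPKM for Mcm3, 30.6 for Mcm4, 110.5 for Mcm6 and 19.6 for Mcm7, each above both fresh libraries. Mcm7 at 24 h was below both of its 12 h values, 22.7 and 21.3 RPKM.

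Of the factors that turn a licensed ring into a fork, Gins2 and cyclin E2 (Ccne2) passed at 24 h. Gins2, a GINS subunit, had 1.36 and 0.823 RPKM in fresh cells, 1.93 and 2.21 RPKM at 12 h, 9.72 RPKM at 24 h, 19.2 RPKM in the 48 h-titled library, and 8.13 and 10.4 RPKM in organoids (24 h against fresh 2.37, SE 0.53; limma, adjusted p = 0.041). Ccne2 had 0.450 and 0.724 RPKM in fresh cells, 0.451 and 0.922 RPKM at 12 h, 8.42 RPKM at 24 h, 23.7 RPKM in the 48 h-titled library, and 3.16 and 4.68 RPKM in organoids (24 h against fresh 2.57, SE 0.55; limma, adjusted p = 0.0367). Both genes reached 2.21 RPKM at most at 12 h and stood above both fresh libraries in each later one. Gins2 overlaps antisense exons of Gse1 over 2758 of 4097 bases, so its values are uncertain. Ccne2 was under 1 RPKM in every fresh and 12 h library. It entered the test only through later libraries where it is high, which partly fixes the direction of its change. The helicase cofactor Cdc45, the loading factor Cdc6 and cyclin E1 (Ccne1) were, in contrast, listed at 0 in the 24 h library. There a count of 0 allows up to 0.0446, 0.0299 and 0.0587 RPKM for counting error only. They were also low in 12 h library 1, at 0.0212, 0.0730 and 0 RPKM, against 2.29, 2.01 and 1.99 RPKM in 12 h library 2. In the 48 h-titled library the same genes had 53.7, 8.60 and 20.7 RPKM, and no call was made for them in any comparison.

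At the fork, the 24 h calls were Rpa2, Prim1, Ung and Exo1. Rpa2, a subunit of the protein that coats single-stranded DNA, had 2.23 and 3.31 RPKM in fresh cells, 8.61 and 17.5 RPKM at 12 h, 33.1 RPKM at 24 h, 31.3 RPKM in the 48 h-titled library, and 9.999 and 19.8 RPKM in organoids (24 h against fresh 3.19, SE 0.63; limma, adjusted p = 0.0321). Ung, the glycosylase that removes uracil from DNA, had 1.21 and 0.854 RPKM in fresh cells, 4.51 and 3.61 RPKM at 12 h, 18.5 RPKM at 24 h, 12.3 RPKM in the 48 h-titled library, and 6.00 and 7.94 RPKM in organoids (24 h against fresh 3.27, SE 0.53; limma, adjusted p = 0.0227). Both genes were higher in every cultured library than in either fresh one. Prim1 had 1.59 and 3.63 RPKM in fresh cells, 2.90 and 2.28 RPKM at 12 h, 18.6 RPKM at 24 h, 25.7 RPKM in the 48 h-titled library, and 11.8 and 14.3 RPKM in organoids (24 h against fresh 2.50, SE 0.57; limma, adjusted p = 0.0415). Exo1 had 0 and 0.0334 RPKM in fresh cells, 0 and 0.0109 RPKM at 12 h, 4.90 RPKM at 24 h, 11.3 RPKM in the 48 h-titled library, and 1.62 and 5.02 RPKM in organoids (24 h against fresh 2.54, SE 0.60; limma, adjusted p = 0.0458). For Exo1 the fresh and 12 h values rest on at most 8 reads a library, so no ratio is given and its fitted change depends on the pseudocount. Exo1 entered the test only through the 24 h, 48 h-titled and organoid libraries where it is high, which partly fixes the direction of its change.

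Of the 5 nucleotide supply genes, 4 were above both fresh libraries at 24 h and 1, Tk1, was below both. Of all genes tested, 44.0% were above both and 47.4% below both. Rrm2, the small subunit of ribonucleotide reductase, had 0.852 and 1.80 RPKM in fresh cells, 0.0172 and 2.16 RPKM at 12 h, 21.8 RPKM at 24 h, 106 RPKM in the 48 h-titled library, and 37.9 and 54.8 RPKM in organoids (24 h against fresh 3.32, SE 0.76; limma, adjusted p = 0.0424). Dctd stayed called at 24 h (2.67, SE 0.54; limma, adjusted p = 0.0327). Tk1, in contrast, had 0.0401 RPKM at 24 h, which is 4 reads, and lay below both fresh libraries. Geminin (Gmnn) had 0.284 RPKM there, or 8 reads, and the clamp Pcna had 15.1 RPKM, also below both fresh libraries. The remaining member below both was Pola1, the catalytic subunit of the priming polymerase, with 0.555 RPKM at 24 h against 1.07 and 1.91 RPKM in fresh cells.

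The 24 h comparison has 1 library on its side, and that library detected the fewest genes. With either fresh library left out, 0 members passed at 24 h, and 12 had an unadjusted p under 0.05 in each case. Of the 20 mitotic genes 2 passed at 24 h, Cdk1 and Birc5, with 11.0 RPKM for Cdk1 at 24 h against 1.16 and 1.27 RPKM in fresh cells. Tipin, which passed as higher at 12 h with 49.4 and 95.0 RPKM, had 0.129 RPKM at 24 h against 12.2 and 10.1 RPKM in fresh cells and fell (-3.42 on the log2 scale; limma, adjusted p = 0.0212).

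**Figure D3:**
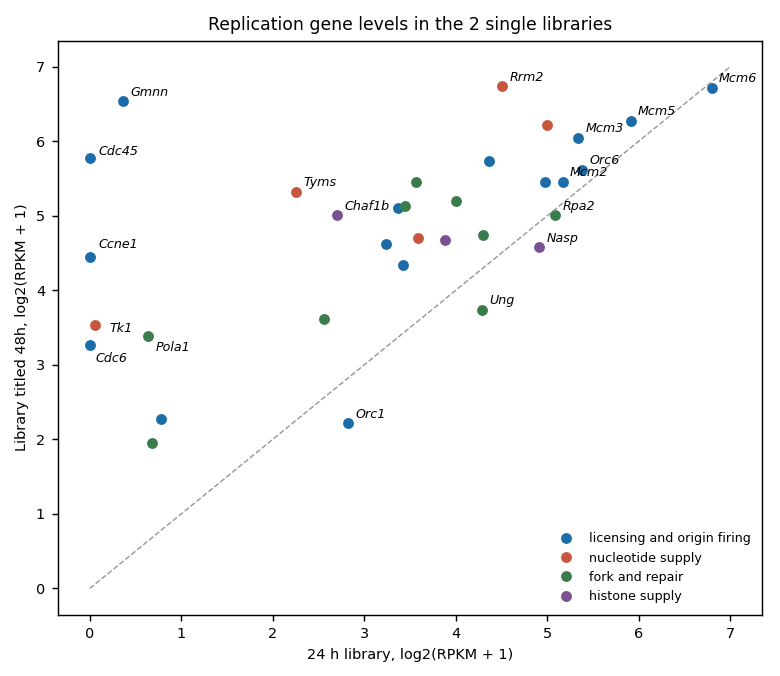
Level of each of the 33 genes in the 24 h library (horizontal) and in the 48 h-titled library (vertical), both as log2(RPKM + 1), coloured by role, with a dashed line of equal values. Of the 33 points, 28 lie above the line, and 8 genes have under 1 RPKM at 24 h, namely Gmnn, Cdc45, Ccne1, Tk1, Cdc6, Dtl, Pola1 and Fen1.

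In the 48 h-titled library all 33 genes were above both fresh libraries, where 55.1% of all genes tested were above and 33.4% below both. The fit called 13 members higher and 0 lower, against 1.84% of all genes called higher and 1.47% lower. These were 4 licensing and firing genes (Gmnn, Mcm5, Gins2 and Ccne2), 3 nucleotide supply genes (Tyms, Rrm2 and Dctd), 5 fork and repair genes (Rfc2, Prim1, Lig1, Ung and Exo1) and the histone supply gene Chaf1b. Among these, Ccne2 and Exo1 entered the test only through libraries where they are high, which partly fixes their direction. The library was also above the 24 h library for 28 of the 33 genes, against 57.2% of all genes tested, and above both organoid libraries for 31, against 40.5%.

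Gmnn, the inhibitor of relicensing, and Rrm2 had the largest fitted changes among the 33 genes in this library. Gmnn had 0.492 and 1.10 RPKM in fresh cells, 10.2 and 2.58 RPKM at 12 h, 0.284 RPKM at 24 h, 92.0 RPKM in the 48 h-titled library, and 80.0 and 45.6 RPKM in organoids. Its value in the 48 h-titled library was 115 times the fresh mean (fitted change 5.71, SE 0.79; limma, adjusted p = 0.0306), and Rrm2 followed with 80.0 times (5.55, SE 0.76; limma, adjusted p = 0.0306). Tyms, thymidylate synthase, had 2.09 and 2.56 RPKM in fresh cells, 6.89 and 3.47 RPKM at 12 h, 3.78 RPKM at 24 h, 39.0 RPKM in the 48 h-titled library, and 15.2 and 19.5 RPKM in organoids (48 h-titled library against fresh 3.59, SE 0.56; limma, adjusted p = 0.0336). At 24 h Tyms lay between its 12 h values.

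Rfc2, Lig1 and Chaf1b passed here and not at 24 h, a difference that was not itself tested. Rfc2 had 4.64 and 3.90 RPKM in fresh cells, 18.4 and 15.2 RPKM at 12 h, 9.87 RPKM at 24 h, 34.0 RPKM in the 48 h-titled library, and 15.3 and 24.4 RPKM in organoids (48 h-titled library against fresh 2.73, SE 0.49; limma, adjusted p = 0.0413). Lig1 had 4.35 and 5.53 RPKM in fresh cells, 4.24 and 5.14 RPKM at 12 h, 10.8 RPKM at 24 h, 42.9 RPKM in the 48 h-titled library, and 8.74 and 16.8 RPKM in organoids (2.89, SE 0.55; limma, adjusted p = 0.0472). Chaf1b, a subunit of the complex that places histones on new DNA, had 2.78 and 1.42 RPKM in fresh cells, 3.92 and 5.24 RPKM at 12 h, 5.53 RPKM at 24 h, 31.2 RPKM in the 48 h-titled library, and 8.02 and 16.1 RPKM in organoids (3.41, SE 0.62; limma, adjusted p = 0.0434). Lig1 overlapped its fresh values at 12 h, whereas Rfc2 and Chaf1b were above them in both 12 h libraries.

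Of the 10 members called at 24 h, all but Mcm2 and Rpa2 also passed here, and of those Ung alone had a smaller fitted change than at 24 h, differences that were not tested. The fitted changes against fresh cells were those of Gins2 (3.29, SE 0.53; limma, adjusted p = 0.0355), Ccne2 (3.97, SE 0.55; limma, adjusted p = 0.0312) and Exo1 (3.59, SE 0.60; limma, adjusted p = 0.0375), beside Rrm2 above. The others were Mcm5 (4.005, SE 0.76; limma, adjusted p = 0.0467), Prim1 (2.95, SE 0.57; limma, adjusted p = 0.0477), Ung (2.72, SE 0.53; limma, adjusted p = 0.0482) and Dctd (3.79, SE 0.54; limma, adjusted p = 0.0323). All 20 mitotic genes were above both fresh libraries and 18 passed, among them Cdk1 with 131 RPKM and Ube2c with 91.1 RPKM. With either fresh library left out 0 members passed, and 23 had an unadjusted p under 0.05 in each case, and the 48 h-titled library has no replicate.

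In organoids against fresh cells, 4 of the 5 nucleotide supply genes rose, with geminin, a GINS subunit and 3 fork and repair genes. The fit called 9 members higher and 0 lower, where 5.15% of all genes tested were called higher and 4.94% lower. Nucleotide supply gave 4 of its 5 genes (Tyms, Rrm2, Dctd and Tk1), licensing and firing gave 2 of 16 (Gmnn and Gins2), fork and repair gave 3 of 9 (Rfc2, Prim1 and Ung) and histone supply gave 0 of 3. Both organoid libraries were above both fresh libraries for 28 of the 33 genes, against 38.1% of all genes tested, and below both for 1, against 26.6%. The median fitted change of the 33 was 1.97 against 0.17 for all genes.

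Gmnn averaged 62.8 ± 24.3 RPKM in organoids and 0.798 ± 0.432 RPKM in fresh cells (SD, n = 2 each), a ratio of 78.7 (fitted change 5.12, SE 0.64; limma, adjusted p = 0.0117). Rrm2 averaged 46.4 ± 12.0 RPKM in organoids and 1.33 ± 0.671 RPKM in fresh cells (4.36, SE 0.62; limma, adjusted p = 0.0142), and Tyms averaged 17.4 ± 3.03 RPKM in organoids and 2.32 ± 0.33 RPKM in fresh cells (2.46, SE 0.46; limma, adjusted p = 0.0258). For all of these genes the groups were apart by more than the spread within each pair. Tk1, which phosphorylates salvaged thymidine, had 1.16 and 0.838 RPKM in fresh cells, 0.00918 and 0.381 RPKM at 12 h, 0.0401 RPKM at 24 h, 10.6 RPKM in the 48 h-titled library, and 5.48 and 11.5 RPKM in organoids. It was below both fresh values in each of the 12 h and 24 h libraries, and in organoids it rose 8.52-fold in mean RPKM over fresh cells (2.18, SE 0.49; limma, adjusted p = 0.041).

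The other members that rose in organoids were Dctd, Gins2, Ung, Prim1 and Rfc2. Dctd was 16.4 times the fresh mean (3.04, SE 0.44; limma, adjusted p = 0.0147), Gins2 8.50 times (2.30, SE 0.43; limma, adjusted p = 0.0267) and Ung 6.75 times (1.97, SE 0.43; limma, adjusted p = 0.0383). Prim1 averaged 13.1 ± 1.76 RPKM in organoids and 2.61 ± 1.44 RPKM in fresh cells (SD, n = 2 each; 2.02, SE 0.46; limma, adjusted p = 0.0428), and Rfc2 averaged 19.9 ± 6.46 RPKM in organoids and 4.27 ± 0.522 RPKM in fresh cells (1.95, SE 0.40; limma, adjusted p = 0.0322). Mcm5 missed the threshold in organoids (limma, adjusted p = 0.0548), with its 2 libraries at 14.0 and 45.9 RPKM.

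Organoid library 1 was below organoid library 2 for 32 of the 33 genes, against 68.0% of all genes tested, with Gmnn as the exception. The median difference between them was -0.95 on the log2 scale, and -0.38 over all genes tested. No member passed without fresh 1, fresh 2 or organoid library 1, with 12, 14 and 26 at an unadjusted p under 0.05, and 2 passed without organoid library 2. When only the organoid and fresh libraries were fitted, 17 passed.

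**Figure D4:**
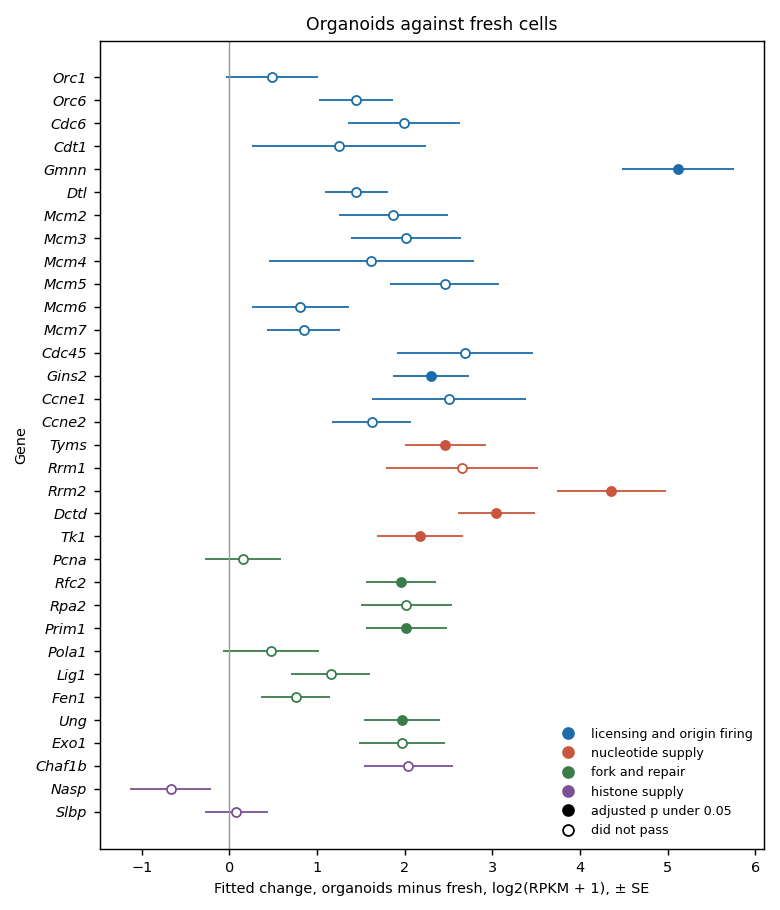
Fitted change of each of the 33 genes, organoids minus fresh cells, on the log2(RPKM + 1) scale, with bars of 1 standard error, coloured by role. Filled points are the 9 genes that passed the test, all to the right of 0, and Nasp is the 1 gene left of 0.

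Organoids against 12 h asked which of these genes were higher after 6 days than after the first hours of culture. Rrm2 and Tk1 rose, and no member fell, where 1.38% of all genes tested were called higher and 0.62% lower. Rrm2 averaged 46.4 ± 12.0 RPKM in organoids and 1.09 ± 1.51 RPKM at 12 h (SD, n = 2 each; fitted change 4.70, SE 0.62; limma, adjusted p = 0.0292). Tk1 averaged 8.51 ± 4.29 RPKM in organoids and 0.195 ± 0.263 RPKM at 12 h (2.93, SE 0.49; limma, adjusted p = 0.0413). Each of these rests on 1 read in 12 h library 1, against 130 reads of Rrm2 and 43 of Tk1 in 12 h library 2, so the ratios of the means, 42.6 and 43.7, are loosely set. Dctd was the member with organoid values below its 12 h values in every library, and it had no call. Of the 33 genes, 19 were higher in both organoid libraries than in either 12 h library, against 20.8% of all genes tested. With any 1 of the fresh, 12 h or organoid libraries left out, 0 members passed, with 9 to 20 at an unadjusted p under 0.05, and 2 passed without the 24 h library or without the 48 h-titled library.

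**Figure D5:**
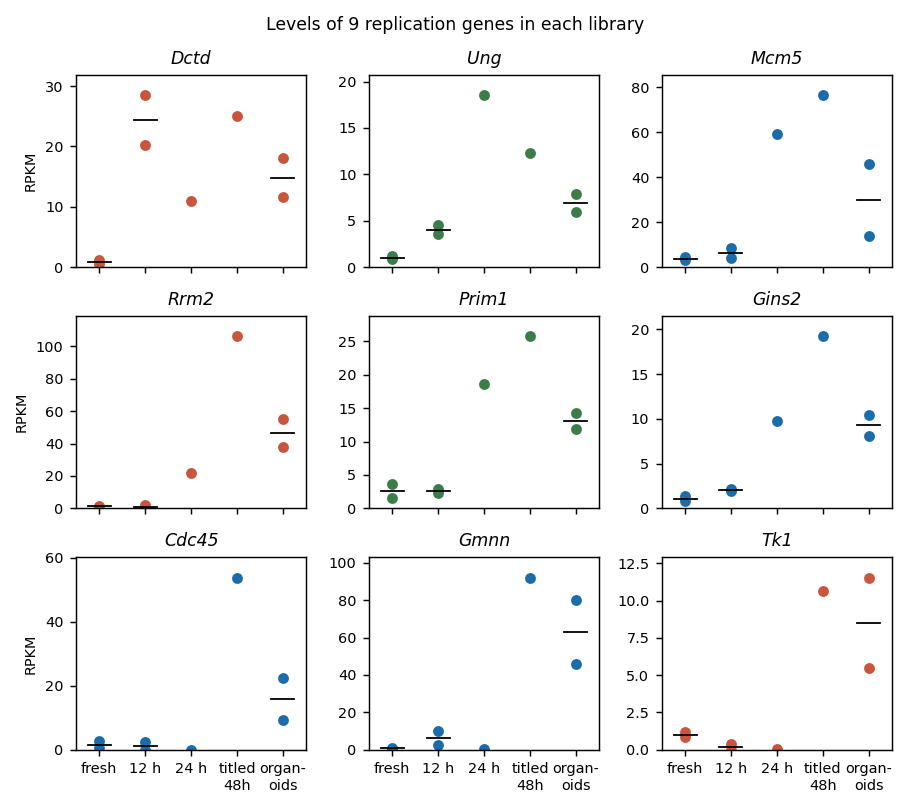
RPKM of 9 of the genes (vertical, from 0) in each group in time order (horizontal), with 1 point for each library and a line at the mean of each pair. Dctd is raised at 12 h, Mcm5, Rrm2, Prim1 and Ung are raised at 24 h, and Cdc45, Gmnn and Tk1 are near 0 at 24 h and high in the 48 h-titled library.

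In all, 16 of the 33 members passed in at least 1 comparison and 17 in none, and those 17 include genes with wide swings between libraries. Of the licensing factors, Cdc6 had 0.288 and 0.148 RPKM in fresh cells, 0.0730 and 2.01 RPKM at 12 h, 0 RPKM at 24 h, 8.60 RPKM in the 48 h-titled library, and 2.20 and 6.29 RPKM in organoids. Orc1 peaked at 24 h instead, with 6.08 RPKM there and 3.65 RPKM in the 48 h-titled library, against 0.546 and 0.121 RPKM in fresh cells. Dtl, the substrate receptor of the ligase that degrades Cdt1 in S phase, had 0.718 RPKM at 24 h, 3.81 RPKM in the 48 h-titled library and 1.45 and 2.68 RPKM in organoids, against 0.0669 and 0.138 RPKM in fresh cells. Orc6, another origin recognition subunit, was already at 10.4 and 8.90 RPKM in fresh cells and had 40.8 RPKM at 24 h and 48.2 RPKM in the 48 h-titled library. Cdc45 and Ccne1 were at 0 at 24 h and had 53.7 and 20.7 RPKM in the 48 h-titled library.

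The remaining helicase subunits and Rrm1 were also without a call. Mcm6 had the highest RPKM of the ring subunits in every library, with 20.3 and 24.5 RPKM in fresh cells, 28.2 and 57.1 RPKM at 12 h, 110.5 RPKM at 24 h, 104 RPKM in the 48 h-titled library, and 24.4 and 64.7 RPKM in organoids. Mcm4 had 6.50 and 6.19 RPKM in fresh cells, 0.865 and 17.1 RPKM at 12 h, 30.6 RPKM at 24 h, 42.7 RPKM in the 48 h-titled library, and 8.76 and 51.0 RPKM in organoids, so its pairs at 12 h and in organoids lay far apart. Mcm3 reached 65.3 RPKM and Mcm7 52.4 RPKM in the 48 h-titled library, against fresh values of 3.98 and 5.31 RPKM for Mcm3 and 11.6 and 12.7 RPKM for Mcm7. Rrm1 had 31.0 RPKM at 24 h, 73.6 RPKM in the 48 h-titled library and 20.47 and 64.3 RPKM in organoids, against 4.20 and 5.84 RPKM in fresh cells. Cdt1 had 9.37 RPKM at 24 h, 33.5 RPKM in the 48 h-titled library and 8.59 and 21.4 RPKM in organoids, against 4.76 and 5.60 RPKM in fresh cells.

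Among fork and histone genes, Pcna stayed near its fresh level at 12 h and 24 h. Pcna, the sliding clamp, had 16.4 and 19.0 RPKM in fresh cells, 19.7 and 16.2 RPKM at 12 h, 15.1 RPKM at 24 h, 35.7 RPKM in the 48 h-titled library, and 13.6 and 28.4 RPKM in organoids (organoids against fresh, limma, adjusted p = 0.843). Slbp had 10.4 and 10.7 RPKM in fresh cells, 7.94 and 7.66 RPKM at 12 h and 13.8 RPKM at 24 h. It had 24.5 RPKM in the 48 h-titled library and 10.8 and 11.5 RPKM in organoids. Nasp was the member with both organoid libraries below both fresh ones, at 6.81 and 16.1 RPKM against 16.4 and 18.5 RPKM, and the difference of -0.67 on the log2 scale did not pass (limma, adjusted p = 0.382). It had 10.4 and 9.36 RPKM at 12 h, 29.2 RPKM at 24 h and 22.8 RPKM in the 48 h-titled library. Nasp, Slbp and Tk1 were the 3 members with both 12 h libraries below both fresh ones. Fen1, the flap endonuclease, was low throughout with 0.189 to 2.87 RPKM, and most of its exon length, 2039 of 2422 bases, overlaps antisense exons of Gm10143 and Tmem258. Neither the strandedness of the counting nor its treatment of reads shared by overlapping genes is given. Values of Fen1 and of Gins2, where 2758 of 4097 bases overlap Gse1, are thus uncertain. A further 9 members have shorter antisense overlaps of 83 to 952 bases.

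Other genes of the same pathway were counted from separate lists. Of the 48 further licensing and fork genes, 9 rose and 2 fell at 24 h, 11 rose and 0 fell in the 48 h-titled library, and 11 rose and 0 fell in organoids, each against fresh cells. Of all genes tested, 4.26% rose and 6.66% fell at 24 h, 1.84% and 1.47% in the 48 h-titled library, and 5.15% and 4.94% in organoids. The largest fitted changes in organoids were in Asf1b, a histone chaperone (4.22; limma, adjusted p = 0.0156), Pole2, a subunit of the leading strand polymerase (3.13; limma, adjusted p = 0.0431), Rfc4, a clamp loader subunit (2.86; limma, adjusted p = 0.0296), and Gins1 (2.60; limma, adjusted p = 0.0181). Asf1b averaged 23.6 ± 12.1 RPKM in organoids and 0.242 ± 0.104 RPKM in fresh cells (SD, n = 2 each).

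Of the 31 further nucleotide synthesis genes tested, 4 rose and 1 fell in organoids, where 5.15% and 4.94% of all genes tested did, so 1 decrease is near the background. Dut averaged 48.9 ± 7.94 RPKM in organoids and 3.75 ± 0.651 RPKM in fresh cells (SD, n = 2 each; 3.39; limma, adjusted p = 0.0081), and Dtymk, the thymidylate kinase, and Prps2, which makes the ribose donor of nucleotides, also rose (1.68 and 1.88; limma, adjusted p = 0.0499 and 0.0363). Mthfd2, a mitochondrial folate enzyme, fell, with 5.80 and 15.6 RPKM in organoids against 109 and 110.4 RPKM in fresh cells (-3.38; limma, adjusted p = 0.0154).

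Among 23 tested of 24 E2F and S phase regulators, 3 rose and 1 fell in organoids, where 5.15% and 4.94% of all genes tested did, so 1 decrease is again near the background. Ccna2, the S phase cyclin A, had 0.433 and 0.482 RPKM in fresh cells, 0.0351 and 1.23 RPKM at 12 h, 0.0383 RPKM at 24 h, 63.6 RPKM in the 48 h-titled library, and 27.7 and 45.2 RPKM in organoids (4.64; limma, adjusted p = 0.0101). Cks1b, a subunit of cyclin kinase complexes, rose by 3.94 and Fbxo5, an inhibitor of the anaphase-promoting complex, by 2.90 (limma, adjusted p = 0.00616 and 0.0243). The kinase inhibitor Cdkn1a, also called p21, fell, with 166 and 161 RPKM in organoids against 423 and 648 RPKM in fresh cells (-1.67; limma, adjusted p = 0.0401). It also fell at 12 h, where it had 118 and 172 RPKM (-1.87; limma, adjusted p = 0.0393). Cdkn1a had 117 RPKM at 24 h and its lowest value, 44.3 RPKM, in the 48 h-titled library. All 20 mitotic genes rose in organoids against fresh cells, led by Ccnb2, Plk1, Cdk1 and Ube2c with fitted changes of 5.32, 4.78, 4.77 and 4.77, and 16 of them rose in organoids against 12 h. Of all genes tested, 5.15% and 1.38% rose in these comparisons. Several mitotic genes, such as Mki67, Plk1 and Bub1, were under 1 RPKM in every fresh, 12 h and 24 h library. They entered the test only through the 48 h-titled and organoid libraries, which partly fixes the direction of their change.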

How the data were processed

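Total RNA from the cells was copied to cDNA with Smart-seq2 and tagmented with Nextera XT, per the labels' protocols. The deposited table holds RPKM values made by the authors for 47729 Ensembl identifiers in 8 libraries. Per the submitters' processing notes the build was GRCm38 and edgeR was used. Aligner, counter, annotation release, strandedness and scaling are, in the sources used here, not given. Symbols, coordinates and exon overlaps came from GENCODE M21 on GRCm38, which matched 47224 identifiers, and 21036 genes were at 0 in all libraries.

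Effective reads were worked back from steps in the low values and exon lengths, and 88.2% to 91.1% of values of up to 20 reads came out whole within 0.01. Reads came out whole in all libraries for 27 of the 33 genes. Floors are 3 reads and cover counting error only, since reads copied by PCR and carrying no molecular identifier are not independent.

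Tests used log2(RPKM + 1), a scale that understates changes of low genes. A gene entered the test with 1 RPKM or more in 2 or more libraries, which left 12900, including all 33. Some members, such as Exo1 and Ccne2, were under 1 RPKM in every fresh and 12 h library. They entered only through the 24 h, 48 h-titled and organoid libraries where they are high, which partly fixes the direction of their change. The linear model of limma 3.58.1 (R 4.3.3) had 1 coefficient for each of 5 groups, so a lone library is assumed to vary like the paired ones. Variances were moderated with a trend, with 3 residual and 3.65 prior degrees of freedom. P-values were two-sided and Benjamini-Hochberg adjusted over all genes tested, with a threshold of 0.05. The fit was also run on simulated data with changes placed only in organoids against fresh cells, and the outcome is not given here. That run does not bear on the comparisons with a lone library. The comparisons with fresh cells share the same 2 fresh libraries.

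The members and lists were chosen with earlier results of these data known. Members that passed are given in each library, other members as values only, and of each further list up to 4 passing genes by size of change in organoids. Genes named at 12 h and 24 h beyond that rule were chosen after their values were seen. Alternatives tried were the pseudocount, the filter, centring, quantile normalization, library weights, a replicate block, fitting only the groups compared, the 48 h library as 24 h, and leaving out each library. Promoter windows were taken from RefSeq.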

Additional observations from a re-analysis of the deposited data

How the results depend on the processing

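Every call on the 33 genes was as higher under each alternative, and none reversed. Over the single genes named, 343 alternative values kept their call and 177 lost it. The numbers of members called in the comparisons with fresh cells (12 h, 24 h, titled 48 h, organoids), and in organoids against 12 h, were 1, 10, 13, 9 and 2. For 12 h, 2 were called with a pseudocount of 0.1 RPKM, with a mean of at least 5 RPKM, with centring, with quantile normalization or with only the groups compared, and 3 with library weights. For 24 h, 2 were called without a filter. For the 48 h-titled library, 2 were called with a pseudocount of 0.1 RPKM, 7 without a filter, 20 with quantile normalization and 29 with library weights. For organoids, 3 were called without a filter, 17 with quantile normalization and 17 with only the groups compared. For organoids against 12 h, 0 were called without a filter (14 at an unadjusted p under 0.05), with library weights (12) or with only the groups compared (12).

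Leaving out 1 library gave 0 to 2 members at 12 h, 0 to 11 at 24 h, 0 to 12 in the 48 h-titled library, 0 to 11 in organoids against fresh cells and 0 to 2 in organoids against 12 h. Over all genes the counts were 878, 1409, 427, 1301 and 258, and leaving out 1 library gave 0 to 1082, 0 to 2313, 0 to 521, 0 to 1418 and 0 to 321. Without a filter they were 423 at 12 h, 930 for titled 48 h, 740 for organoids and 0 for organoids against 12 h (3379 unadjusted). With library weights they were 1601, 4526, 2690 and 28 for 12 h, 24 h, titled 48 h and organoids against 12 h. With a pseudocount of 0.1 RPKM they were 2258, 114 and 418 for 24 h, titled 48 h and organoids against 12 h. Centring gave 2126 at 24 h, quantile normalization 722 for titled 48 h, and a mean of at least 5 RPKM 151 and only the groups compared 0 (1679 unadjusted) for organoids against 12 h. With the 48 h-titled library as a second 24 h library, 678 genes and 12 members were called at 24 h. Centring turned the split of calls to 300 higher and 839 lower at 12 h, 517 and 1609 at 24 h, 206 and 373 for titled 48 h, and 556 and 836 in organoids, where it was 664 and 637.

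The order of first rise (12 h, 24 h, titled 48 h) was 25, 6 and 2 genes. It was 14, 14 and 5 when every library had to pass, 19, 8 and 6 with a rise of 1.5 times and 1 RPKM, and 19, 10 and 4 with centring. Without the 24 h library or without the 48 h-titled library, alternatives chosen after seeing the data, 1 member passed at 12 h, 10 or 11 in organoids and 2 in organoids against 12 h. The replicate numbers were not taken as pairs: differences between replicates correlated at 0.195 and 0.224 for 12 h and organoids with fresh cells but 0.0175 for organoids with 12 h. With a replicate block 1, 9, 12, 12 and 2 members and 722, 1330, 350, 1422 and 205 genes were called, and 8 single calls were lost. The 12 h libraries differ for Rrm2 (1 and 130 reads) and Tk1 (1 and 43 reads), while Exo1 rests on 0 and 2 reads there. The cause of these changes was not tested.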
